A study of Mus musculus with 12 samples.

Results

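Hmgcs1, Idi1, Fdps, Sqle, Cyp51, Insig1 and Srebf2 were followed through peri-infarct mouse cortex, as 7 of the 25238 genes counted by RNA-seq. They were taken by symbol, from a list drawn up with earlier results of these data known. Of them, 5 encode enzymes of cholesterol synthesis, and the other two, Insig1 and Srebf2, encode regulators of that pathway. None is a lipoprotein receptor, so the set covers synthesis and its control and not uptake, which was read from a separate list.

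Cells make cholesterol from acetyl-CoA through mevalonate, isoprenoid diphosphates, squalene and lanosterol. When sterols in the endoplasmic reticulum run low, the transcription factor SREBP2, encoded by Srebf2, is carried to the Golgi by SCAP, cleaved there and released to switch on the genes of this pathway, its own gene among them, while INSIG proteins hold the complex back when sterols are plentiful. The blood-brain barrier keeps plasma lipoproteins out, so the adult brain makes its own cholesterol, in astrocytes, oligodendrocytes and neurons.

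The ISP group received intracellular sigma peptide (ISP), which enters cells and binds the receptor phosphatase PTPσ, at 1 μg/g/day from the first day post-stroke, after middle cerebral artery occlusion (MCAo). The Veh group had the same surgery and received 5% DMSO in saline, although the results text of the study gives a scrambled peptide for the comparison mice. Brains of both groups were taken at day 14 post-stroke. The third group carries only the label control. Its tissue label is also peri-infarct cortex, and no surgery, treatment or day is given for it in the sources used here, so it is compared only under that label and the parts that stroke, agent and day play in a difference from it cannot be told apart. The methods describe MCAo in young adult male mice of the C57BL/6J or Nestin-creER-Ai9 strain, and which strain gave these libraries is not given in the sources used here. Each group holds 4 libraries from 1 mouse each, made from micro-punches of cortex that hold neurons, glia and vessels in unknown proportions. The libraries are ISP 12, 14, 16 and 18, Veh 2, 6, 8 and 10, and control 19, 21, 36 and 38.

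The promoters show how far the shared control of these genes can be read in their sequence. RefSeq (GRCm38.p6) held an entry for 5 of the 7 genes, Hmgcs1, Idi1, Cyp51, Insig1 and Srebf2, and Sqle and Fdps had none. The 250 bases before the start are given for Hmgcs1 at chr13:119690101-119690350 (+ strand), Srebf2 at chr15:82147019-82147268 (+ strand) and Insig1 at chr5:28071162-28071411 (+ strand). Hmgcs1 and Insig1 each hold a match to a motif that SREBP proteins are known to bind, and Srebf2 holds only part of one. Capitals mark TCACCCCAC, a match to the sterol regulatory element TCACNCCAC, in Hmgcs1, the first letters of that element, TCACCCCA, in Srebf2, and the E-box CACGTG in Insig1.
Hmgcs1: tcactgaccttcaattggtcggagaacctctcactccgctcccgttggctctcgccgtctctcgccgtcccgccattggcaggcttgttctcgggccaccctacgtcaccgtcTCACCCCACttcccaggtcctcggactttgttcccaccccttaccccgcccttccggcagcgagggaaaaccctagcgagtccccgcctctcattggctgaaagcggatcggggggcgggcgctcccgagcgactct
Srebf2: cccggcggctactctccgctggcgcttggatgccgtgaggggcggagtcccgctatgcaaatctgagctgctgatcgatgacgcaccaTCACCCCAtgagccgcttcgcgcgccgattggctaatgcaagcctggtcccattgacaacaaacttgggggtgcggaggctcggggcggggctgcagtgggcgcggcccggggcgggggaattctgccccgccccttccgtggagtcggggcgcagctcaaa
Insig1: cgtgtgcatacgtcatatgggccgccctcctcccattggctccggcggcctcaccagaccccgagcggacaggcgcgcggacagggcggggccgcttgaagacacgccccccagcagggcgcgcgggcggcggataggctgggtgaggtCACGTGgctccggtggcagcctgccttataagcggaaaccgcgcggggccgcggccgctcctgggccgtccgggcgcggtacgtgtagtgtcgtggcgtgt

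Motifs were searched on both strands from 250 bases before to 50 bases after the start, and in 32851 RefSeq promoters of the same length. TCACNCCAC was in 1 of the 5 promoters, 137 bases before the start of Hmgcs1, and in 1.24% of all promoters. TCACCCCA, which overlaps TCACNCCAC and was added after the promoters had been read, was in 2 of 5 (Hmgcs1 and Srebf2, there at 162 bases before the start), against 1.56% of all. CACGTG was in 1 of 5 (Insig1, at 101 bases before the start) and in 7.15% of all. CCAAT, the site of the factor NF-Y that works beside SREBP, was in 5 of 5 and in 37.4% of all, and GGGCGG, the GC box of the Sp1 family, was in 5 of 5 and in 35.7% of all. A match is a run of letters in this window and was not tested as a binding site.

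On mm10, the build that the study used and that GENCODE release M21 annotates as GRCm38, Hmgcs1 lies on chromosome 13 from 119690379 to 119708260 (+ strand) and Idi1 on the same chromosome from 8885501 to 8892451 (+ strand). Sqle and Srebf2 share chromosome 15, from 59315077 to 59331192 and from 82147181 to 82205379 (both + strand). Insig1 and Cyp51 share chromosome 5, from 28071363 to 28078662 (+ strand) and from 4081145 to 4104746 (− strand). Fdps lies on chromosome 3 from 89093588 to 89101959 (− strand). The last bases of Cyp51 overlap the end of Akap9 on the other strand, and most of Fdps overlaps the annotated gene Gm43738 on the same strand. Some reads there may have been set aside as ambiguous. For Fdps this holds only if Gm43738 was in the annotation used for counting, which is not known, as Gm43738 is not among the counted genes. Srebf2 hosts Mir33, a microRNA of an intron, which was counted as a gene of its own.

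Total counts per library were 19325979 to 28685864 in ISP, 17442711 to 24706638 in Veh and 21322702 to 29845629 in control. The libraries carried the markers of cortical excitatory neurons, with Slc17a7, the vesicular glutamate transporter, between 1870 and 2681 CPM over the 12 libraries (counts-per-million, with library sizes scaled by TMM). Some libraries stood apart. ISP 18 and Veh 6 held choroid plexus RNA, with Ttr, its main secreted product, at 1051 and 1540 CPM, and at 1.07 CPM or less in the other libraries. ISP 14 and ISP 18, and to a lesser degree Veh 10, were high in astrocyte and microglia markers. Results are therefore also given without these libraries.

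Every gene of the set was well measured, with the lowest count in any library being 173 reads, for Idi1 in Veh 2, and the highest 7277 reads, for Hmgcs1 in control 36. Divided by exon length, the mean levels kept 1 order in all 3 groups: Hmgcs1, Srebf2, Insig1, Cyp51, Fdps, Sqle and Idi1. In ISP they were 38.6 ± 11.5, 26.1 ± 6.11, 16.96 ± 5.18, 11.6 ± 3.86, 9.73 ± 2.33, 8.06 ± 1.71 and 3.29 ± 1.24 CPM per kb in that order (SD, n = 4). In control they were 61.5 ± 5.97, 35.4 ± 3.55, 25.8 ± 4.13, 16.2 ± 1.90, 15.6 ± 1.39, 11.8 ± 0.953 and 5.09 ± 0.886 CPM per kb (SD, n = 4). In control, Cyp51 and Fdps were the only neighbours in that order whose libraries overlapped. In ISP all neighbours overlapped except Sqle and Idi1, and in Veh the overlapping neighbours were Srebf2 with Insig1, Cyp51 with Fdps, and Fdps with Sqle.

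Hmgcs1, the cytosolic synthase that forms HMG-CoA at the entry to the pathway, was at 242, 134, 199 and 135 CPM in ISP 12, 14, 16 and 18, at 191, 234, 239.9 and 164 CPM in Veh 2, 6, 8 and 10, and at 248, 299.6, 309 and 273 CPM in control 19, 21, 36 and 38. Every ISP library and every Veh library lay below every control library, while ISP and Veh overlapped. ISP 14 and ISP 18 were the lowest of the 12.

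Idi1, the isomerase that balances the pair of isoprenoid building blocks, was the least abundant of the set, at 17.5, 7.48, 11.9 and 9.33 CPM in ISP, 10.3, 12.4, 12.8 and 12.5 CPM in Veh, and 13.4, 20.5, 18.3 and 19.3 CPM in control, in the same library order. Its Veh libraries were all below control, and ISP 12 alone of the ISP libraries reached into the control range. Fdps, which joins these units into farnesyl diphosphate, was at 48.1, 30.7, 50.5 and 34.6 CPM in ISP, 62.0, 58.5, 57.1 and 39.7 CPM in Veh, and 64.6, 58.0, 68.1 and 71.7 CPM in control. All ISP libraries were below all control libraries, and only Veh 10 among the Veh libraries lay in the ISP range.

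Sqle, squalene epoxidase, the first enzyme of the pathway to use oxygen, was at 54.5, 34.8, 50.9 and 38.7 CPM in ISP, 46.6, 60.7, 64.9 and 37.1 CPM in Veh, and 59.7, 69.4, 70.5 and 62.3 CPM in control. ISP and control did not overlap, and Veh spread over both ranges. Cyp51, the lanosterol demethylase, was at 68.9, 37.9, 62.2 and 35.2 CPM in ISP, 64.9, 62.1, 65.0 and 50.6 CPM in Veh, and 62.9, 73.0, 82.5 and 68.1 CPM in control. Here ISP 14 and ISP 18 lay below every Veh library, ISP 12 above every Veh library and ISP 16 inside the Veh range.

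Insig1, which retains the SCAP and SREBP complex in the endoplasmic reticulum and is itself switched on by SREBP2, was at 72.7, 35.8, 56.8 and 44.5 CPM in ISP, 52.5, 78.1, 80.3 and 54.5 CPM in Veh, and 60.7, 88.3, 84.4 and 85.3 CPM in control. Control 19 lay apart from the other control libraries and inside the Veh range. Srebf2 was at 231, 135, 215 and 169 CPM in ISP, 207, 235, 244 and 183 CPM in Veh, and 217, 264, 259 and 275 CPM in control. Its ISP range ran from below all Veh libraries to above control 19.

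**Figure D1:**
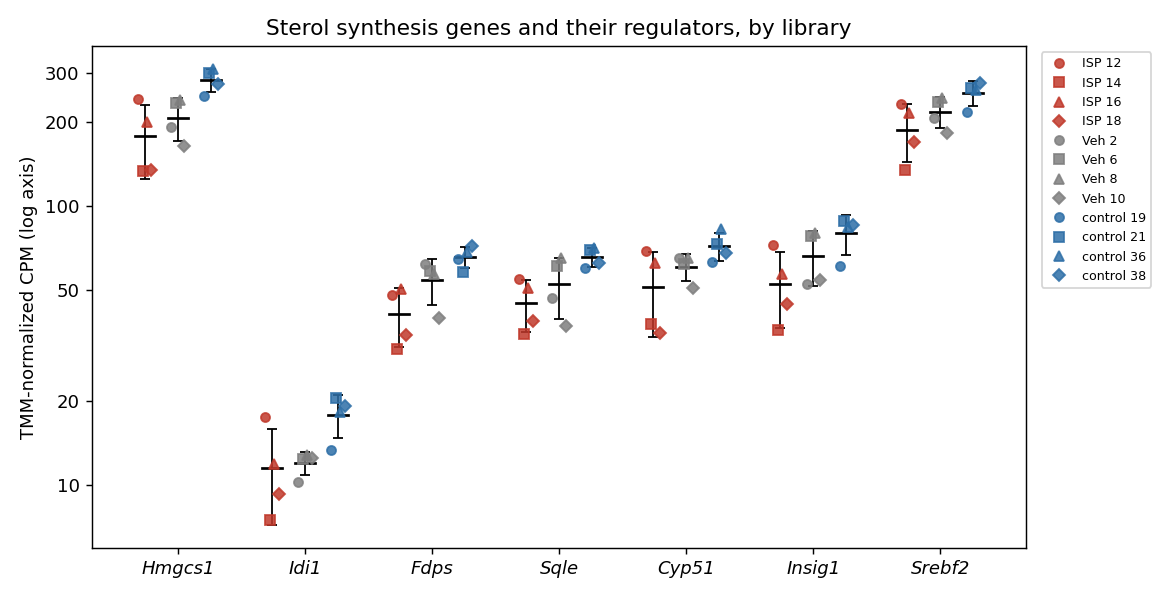
TMM-normalized CPM (vertical, log axis) of the 7 genes (horizontal), with 1 point per library, ISP in red, Veh in grey and control in blue, and bars for mean and SD (n = 4). ISP 14 and ISP 18 are the lowest of the 12 libraries for all genes but Sqle, where Veh 10 is lower than ISP 18.

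Group means stood in the same order, ISP lowest, Veh between and control highest, for 7 of 7 genes. ISP 14 and ISP 18 were the lowest of the 12 libraries for 6 of 7. ISP 14, ISP 16, ISP 18 and also Veh 10 were below every control library in 7 of 7 genes, and ISP 12 was so in 3. Veh 10 was the lowest Veh library for 5 of 7 genes and Veh 8 the highest for 6, and control 19 was the lowest control library for 6. The spread within a group followed this, with coefficients of variation of 21.2% to 37.6% in ISP, 9.71% to 24.5% in Veh and 8.08% to 17.4% in control.

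ISP was set against control first. Of the 7 genes, 4 fell, Hmgcs1, Fdps, Sqle and Insig1, to between 0.622 and 0.681 of the control level, and none rose. The background was 3.42% of 15232 tested genes called lower, and 6.74% called higher, by the same test (edgeR quasi-likelihood test, Benjamini-Hochberg adjusted p under 0.1). The median log2 fold change of the set was -0.61, beside -0.01 for all tested genes.

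Fdps averaged 41.0 ± 9.81 CPM in ISP and 65.6 ± 5.83 CPM in control (SD, n = 4 each), a log2 fold change of -0.69 ± 0.15 (SE, edgeR adjusted p = 0.0305). Hmgcs1 averaged 177 ± 52.7 CPM in ISP and 283 ± 27.4 CPM in control (SD, n = 4 each), a log2 fold change of -0.67 ± 0.17 (SE, edgeR adjusted p = 0.0448). Sqle averaged 44.7 ± 9.47 CPM in ISP and 65.5 ± 5.29 CPM in control, a log2 fold change of -0.55 ± 0.13 (SE, edgeR adjusted p = 0.0403). Insig1 averaged 52.5 ± 16.0 CPM in ISP and 79.7 ± 12.8 CPM in control, a log2 fold change of -0.61 ± 0.19 (SE, edgeR adjusted p = 0.0878). The called genes belong to the entry step, the farnesyl diphosphate and squalene epoxide steps, and the brake on the pathway. Which steps are named depends on the threshold, as Idi1, at -0.63, was not called.

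The other members missed the edgeR threshold. Idi1 had a log2 fold change of -0.63 ± 0.23 (SE, edgeR adjusted p = 0.129), Cyp51 -0.49 ± 0.19 (edgeR adjusted p = 0.156) and Srebf2, the gene of the transcription factor, -0.44 ± 0.15 (edgeR adjusted p = 0.101). All 7 had an unadjusted p under 0.05 in edgeR, where 10% of tested genes did so on the lower side. DESeq2, the tool named in the methods of the study, called all 7 lower at an adjusted p under 0.1, with adjusted p-values between 0.000654 and 0.0793 and a background of 5.09%, and limma-voom also called 7. ISP and control libraries did not overlap for 3 of 7 genes, Hmgcs1, Fdps and Sqle, beside 4.75% of tested genes lower without overlap.

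These counts changed when single libraries were left out. By edgeR, 1 of 7 genes was called without ISP 14, 1 without ISP 18, 1 without control 36 and 2 without control 38, while 7 were called without ISP 12. The share of all tested genes called in these smaller fits, or without both ISP 14 and ISP 18, is not given beside them. The counts therefore cannot be read as particular to the 7 genes. All 7 log2 fold changes stayed negative in each of these fits. Their median was -0.46 without ISP 14, -0.54 without ISP 18, -0.58 without control 36 and -0.58 without control 38, beside -0.61 with every library. Without both ISP 14 and ISP 18, 0 of 7 genes were called, 3 with an unadjusted p under 0.05, and the log2 fold changes still ran on the lower side, from -0.41 for Fdps to -0.12.

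Veh was set against control in the same way. Idi1 fell, to 0.679 of the control level, and it was the only one of the 7 genes to be called, beside 1.2% of 15126 tested genes called lower and 1.03% called higher. The median log2 fold change of the set was -0.27, beside 0.02 for all tested genes. Idi1 averaged 12.0 ± 1.16 CPM in Veh and 17.8 ± 3.11 CPM in control (SD, n = 4 each), a log2 fold change of -0.56 ± 0.14 (SE, edgeR adjusted p = 0.0963). Hmgcs1 averaged 207 ± 36.1 CPM in Veh and 283 ± 27.4 CPM in control, a log2 fold change of -0.44 ± 0.12 (SE), and it stood just outside the threshold at an adjusted p of 0.1001 from edgeR.

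The other members had log2 fold changes of -0.31 for Sqle, -0.27 for Fdps, -0.25 for Insig1, -0.23 for Cyp51 and -0.22 for Srebf2, with adjusted p-values from edgeR of 0.286 to 0.458. An unadjusted p under 0.05 was found for 3 of 7, Hmgcs1, Idi1 and Cyp51, beside 8.24% of tested genes on the lower side. DESeq2 called 2 of 7 genes lower, Hmgcs1 with an adjusted p of 0.0137 and Idi1 with an adjusted p of 0.0189, beside 3.63% of genes. Veh and control libraries did not overlap for those same 2 genes, beside 5.39% of tested genes lower without overlap. By edgeR the count was 0 without Veh 2, Veh 10, control 21, control 36 or control 38, each left out in turn, and 2 without control 19. It was 1 without Veh 6, the library with choroid plexus RNA. With Veh 2 and Veh 10 both left out, 0 of 7 were called and 2 had an unadjusted p under 0.05. The share of all tested genes called with libraries left out is not given beside these counts.

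ISP was then set against Veh, the comparison between mice with the same surgery. By edgeR 0 of 7 genes were called, beside 0% of 15214 tested genes in either direction. All 7 log2 fold changes were negative, with a median of -0.23 beside 0.02 for all tested genes. Fdps was the 1 gene with an unadjusted p under 0.05, beside 7.47% of tested genes on the lower side. It averaged 41.0 ± 9.81 CPM in ISP and 54.3 ± 9.97 CPM in Veh (SD, n = 4 each), a log2 fold change of -0.41 ± 0.18 (SE, edgeR adjusted p = 0.311).

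Insig1 had a log2 fold change of -0.34 between ISP and Veh, Cyp51 -0.25, Sqle -0.23, Hmgcs1 -0.23, Srebf2 -0.21 and Idi1 -0.06, with adjusted p-values from edgeR of 0.448 to 0.924. The 95% interval of the difference reached from -0.64 to 0.19 for Hmgcs1 and from -0.56 to 0.44 for Idi1, so changes within these bounds were not excluded with 4 mice a group. DESeq2, with 1.35% of genes called lower, and limma-voom also called 0 of 7. ISP and Veh libraries overlapped for every one of the 7 genes, beside 4.01% of tested genes lower without overlap. Without ISP 14 and ISP 18 the log2 fold changes of 5 genes turned positive, Idi1 to 0.29, Cyp51 to 0.11, Hmgcs1 to 0.090, Srebf2 to 0.038 and Sqle to 0.0090. The 3 comparisons share libraries, so they are not independent of each other.

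**Figure D2:**
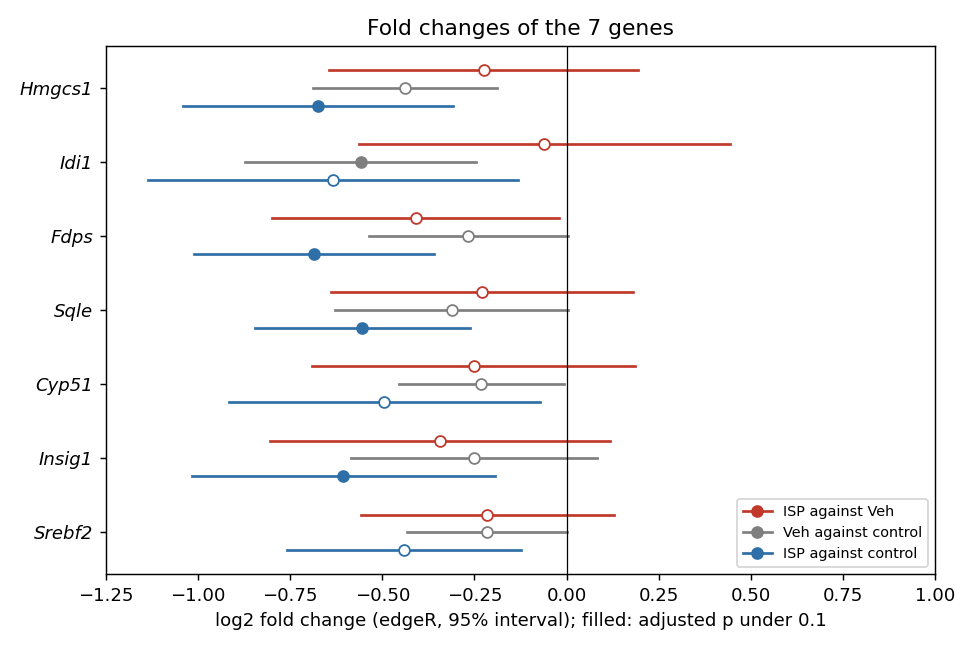
Log2 fold change from edgeR (horizontal) with its 95% interval for each of the 7 genes (vertical) in ISP against Veh (red), Veh against control (grey) and ISP against control (blue), filled where the adjusted p is under 0.1. The 4 filled blue points are Hmgcs1, Fdps, Sqle and Insig1, the filled grey point is Idi1, and no red point is filled.

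The rest of the route from acetyl-CoA to cholesterol was read from a list of 14 other enzymes. In ISP against control all 14 had negative log2 fold changes, with a median of -0.38, and 6 of them fell. Mvd, which decarboxylates mevalonate diphosphate, averaged 16.5 ± 2.40 CPM in ISP and 28.8 ± 2.86 CPM in control (SD, n = 4 each), a log2 fold change of -0.80 (adjusted p = 0.0186 from edgeR). Hsd17b7, a ketosteroid reductase, had -0.46 (adjusted p = 0.0762) and Fdft1, squalene synthase, -0.39 (adjusted p = 0.0689). Fdft1 was called without ISP 12, ISP 16 or control 21 only, and Hsd17b7 without ISP 12 or ISP 16 only.

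The list of 14 had 1 call without ISP 14 and ISP 18, Mvd at -0.71 (adjusted p = 0.0809 from edgeR). Mvd was called with each library left out in turn (adjusted p from 0.00568 to 0.0789). The list had 3 calls without control 19, 2 without ISP 14, 2 without control 36, 1 without ISP 18 and 1 without control 38. These counts also stand without the share of all tested genes called in the same fits. In Veh against control 0 of the 14 were called by edgeR, 3 of them with an unadjusted p under 0.05 and the same number called by DESeq2, with log2 fold changes of -0.41 for Hsd17b7, -0.38 for Msmo1 and -0.20 for Dhcr7, and 13 were negative. In ISP against Veh 0 of the 14 were called by edgeR, 3 had an unadjusted p under 0.05, and all 14 were negative. Mvd was at 19.2, 13.5, 16.0 and 17.4 CPM in ISP and 29.6, 24.3, 24.6 and 20.4 CPM in Veh, with no overlap between these groups. Its log2 fold change was -0.58 (standard error 0.14, adjusted p = 0.261 from edgeR), and DESeq2 called it with an adjusted p of 0.0400. Mvk, the kinase of mevalonate, had -0.36, Fdft1 -0.33 and Nsdhl, a dehydrogenase of sterol demethylation, -0.31.

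Of the 5 other regulators of the SREBP pathway, Srebf1, which encodes the SREBP1 proteins, rose in ISP against control and went the other way from Srebf2. It was at 63.2, 96.7, 52.8 and 118 CPM in ISP 12, 14, 16 and 18 and between 33.5 and 52.8 CPM in control, with a log2 fold change of 0.94 ± 0.22 (SE, edgeR adjusted p = 0.0383). It was 0.43 (adjusted p = 0.364) without ISP 14 and ISP 18, 0.86 (adjusted p = 0.114) without ISP 14, 0.83 (adjusted p = 0.106) without control 19 and 0.93 (adjusted p = 0.107) without control 38. The machinery that moves and cuts SREBP proteins was not called, with Scap, their escort, at -0.01, the proteases Mbtps1 at 0.14 and Mbtps2 at -0.21, and Insig2 at 0.00. Srebf1 had 0.51 in Veh against control (adjusted p = 0.137 from edgeR) and 0.45 in ISP against Veh (adjusted p = 0.373 from edgeR). DESeq2 called it higher in Veh against control (adjusted p = 0.0430) and not in ISP against Veh (adjusted p = 0.492).

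Sterol uptake and transport inside the cell was read from 9 genes, of which 3 were called in ISP against control. Stard4, a cytosolic sterol carrier, fell, at 29.0, 16.2, 27.5 and 14.1 CPM in ISP and 30.3 to 43.1 CPM in control (log2 fold change -0.77, adjusted p = 0.0656 from edgeR). Npc2, which takes cholesterol out of lysosomes, rose, at 67.4, 140.3, 65.9 and 158 CPM in ISP and 44.3 to 59.3 CPM in control (log2 fold change 1.07, adjusted p = 0.0403). Lipa, the lysosomal acid lipase, had 0.51 (adjusted p = 0.0765), and Scarb1, a lipoprotein receptor, -0.24 (adjusted p = 0.218). With 1 library left out, Npc2 was not called without ISP 14, ISP 18 or control 38 (adjusted p from 0.104 to 0.122), Stard4 was called without ISP 12, ISP 16 or control 19 and otherwise not, and Lipa was called without ISP 12 or ISP 16 and otherwise not. Without both ISP 14 and ISP 18 none of the 9 was called, with Npc2 at 0.37, Lipa at 0.22 and Stard4 at -0.38. In Veh against control edgeR called Npc2 alone (0.45, adjusted p = 0.0936), and not without Veh 2, Veh 6, Veh 10, control 21, control 36 or control 38. Stard4 was at -0.48, Lrp8 at -0.23 and Lrpap1 at 0.23. DESeq2 called Npc2 higher (adjusted p = 0.0141), and Stard4 (adjusted p = 0.0670) and Lrp8 (adjusted p = 0.0886) lower. In ISP against Veh edgeR called 0 of 9, with 4 at an unadjusted p under 0.05, Lipa at 0.56, Npc2 at 0.63, Lrp8 at 0.19 and Scarb1 at -0.27, and DESeq2 called 1.

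Among 10 genes of efflux, esterification and oxysterol handling, 3 rose in ISP against control. Abca1, the exporter that loads cholesterol onto apolipoproteins, was at 29.4, 119, 30.3 and 94.9 CPM in ISP 12, 14, 16 and 18 and between 14.4 and 21.9 CPM in control, a log2 fold change of 1.94 ± 0.40 (SE, edgeR adjusted p = 0.0275). It was lower in ISP 12 and ISP 16 than in ISP 14 and ISP 18 but above every control library. Without ISP 14 and ISP 18 its log2 fold change was 0.74 (adjusted p = 0.0869), and it was then the only call of the list. Cyp27a1, a sterol hydroxylase, had 0.99 (adjusted p = 0.0277) and Abcg1, another exporter, 0.37 (adjusted p = 0.0903). Abca1 and Cyp27a1 were called with each library left out in turn, and Abcg1 only without ISP 12 or ISP 16. Ch25h, which makes an oxysterol, had 2.47 at 1.60 ± 1.66 CPM in ISP and 0.291 ± 0.160 CPM in control (SD, n = 4 each). It was not called by edgeR (adjusted p = 0.111) but was called by DESeq2 (adjusted p = 0.0390). Its levels were 0.515, 2.01, 0.0965 and 3.77 CPM in ISP 12, 14, 16 and 18, and 0.129 to 0.510 CPM in control. ISP 16 thus lay below every control library.

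In Veh against control edgeR and DESeq2 called 0 of the 9 genes of that list that edgeR tested, 1 of them with an unadjusted p under 0.05. This was Abca1, at 24.8, 28.9, 16.0 and 63.9 CPM in Veh 2, 6, 8 and 10 (log2 fold change 0.91, adjusted p = 0.185 from edgeR), with Veh 10 far above the other Veh libraries. Soat1, the enzyme that esterifies cholesterol, had -0.34, Cyp27a1 0.30 and Cyp46a1, the neuronal hydroxylase that starts cholesterol export from the brain, 0.18. In ISP against Veh 0 of 10 were called by edgeR or DESeq2, 4 with an unadjusted p under 0.05, Cyp46a1 at -0.27, Abcg1 at 0.29, Cyp27a1 at 0.70 and Soat1 at 0.69.

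**Figure D3:**
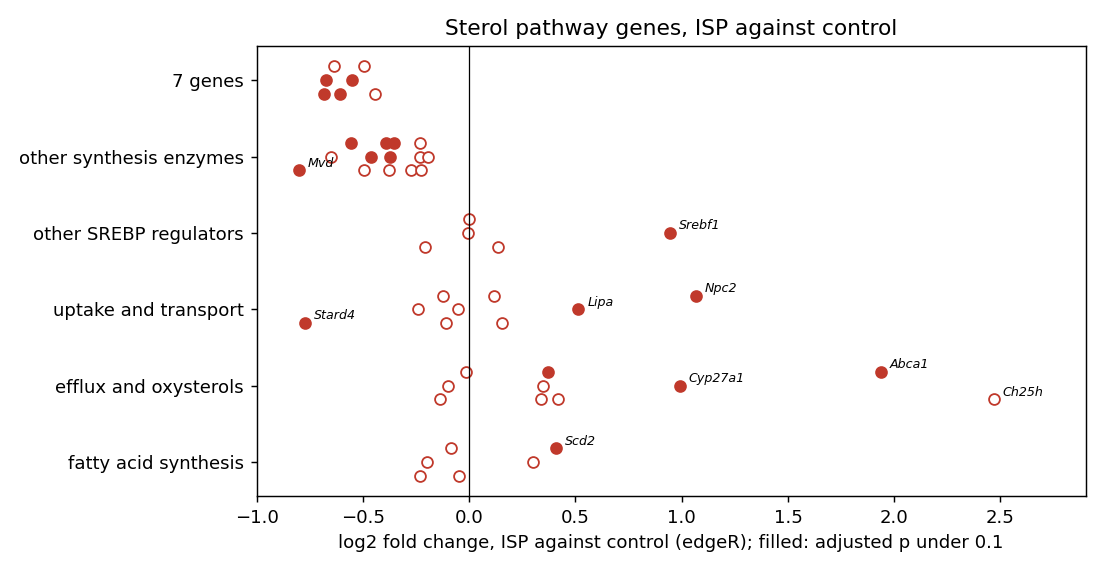
Log2 fold change of ISP against control from edgeR (horizontal) for the 7 genes and 5 lists of related genes (vertical), 1 point per gene, filled where the adjusted p is under 0.1. The synthesis genes all lie left of 0, and Abca1 (1.94), Npc2 (1.07), Cyp27a1 (0.99) and Srebf1 (0.94) are the filled points farthest to the right.

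Levels of cell type markers were read beside those of the 7 genes. Microglia markers were higher in ISP than in control for 7 of 8 genes called, with summed levels of 484 to 1592 CPM in ISP, 419 to 725 CPM in Veh and 315 to 394 CPM in control. Astrocyte markers were higher for 5 of 8, at 4697 to 7038 CPM in ISP, 4202 to 5779 CPM in Veh and 3701 to 4210 CPM in control. Oligodendrocyte and myelin genes were higher for 10 of 12, at 5070 to 12135 CPM in ISP, 3014 to 7499 CPM in Veh and 3533 to 5324 CPM in control. The excitatory neuron list, which includes the general neuronal genes Snap25 and Syt1, had 0 of 8 called, 1 with an unadjusted p under 0.05 in edgeR and 0 called by DESeq2. Its summed levels were 9165 to 11297 CPM in ISP, 10587 to 12169 CPM in Veh and 11403 to 11594 CPM in control. In bulk tissue, fewer cells of a type and less RNA per cell cannot be told apart.

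With the mean level of the microglia, astrocyte, oligodendrocyte or excitatory neuron list as a covariate in turn, edgeR called 0 of the 7 genes in ISP against control. The median log2 fold change of the set was then 0.01 with the microglia list, 0.40 with the astrocyte list, -0.47 with the oligodendrocyte list and -0.24 with the excitatory neuron list. All ISP libraries lay above all control libraries in the means of the microglia and astrocyte lists, so in those fits the markers and the group cannot be told apart. The share of all tested genes called with each covariate is not given here. The count of 0 therefore cannot be read as particular to the 7 genes.

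**Figure D4:**
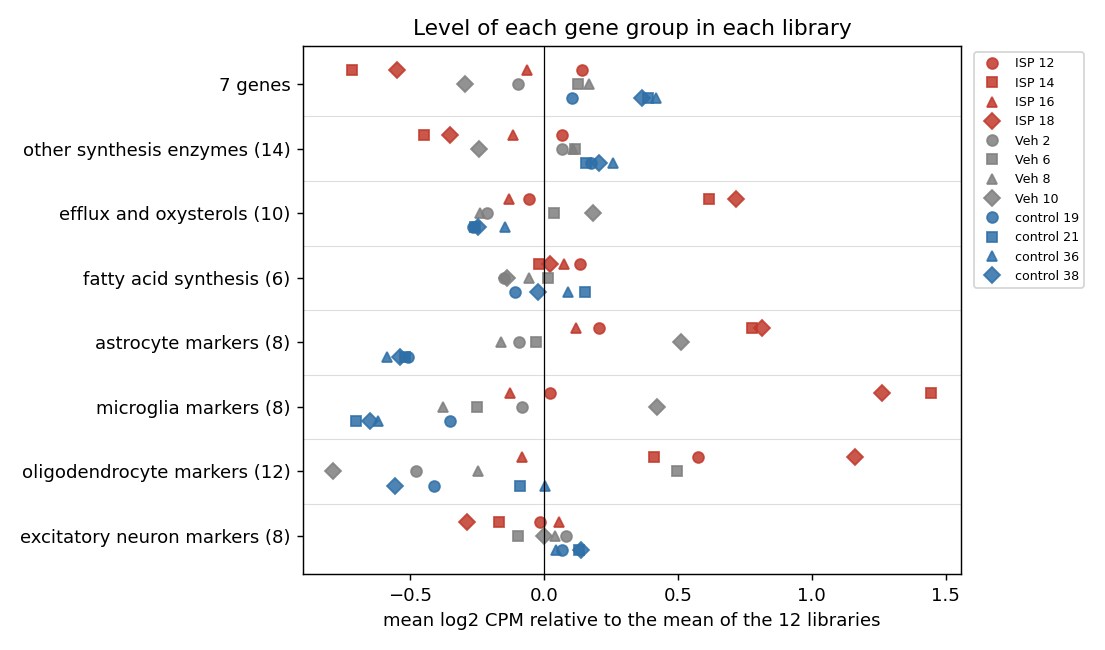
Mean log2 CPM of each gene group relative to the mean of the 12 libraries (horizontal), by group of genes (vertical, with the number of genes), 1 point per library, ISP in red, Veh in grey and control in blue. ISP 14 and ISP 18 are the lowest for the 7 genes (-0.72 and -0.55) and the highest for microglia markers (1.45 and 1.26), and Veh 10 is the lowest Veh library for the 7 genes (-0.29) and the highest for microglia markers (0.42).

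Within groups the 7 genes moved together from mouse to mouse. With group means removed, the correlation of each gene with the mean of the other six over the 12 libraries ran from r = 0.746 for Fdps to r = 0.973 for Hmgcs1. The 21 pairs ranged from r = 0.469, for Idi1 with Fdps, to r = 0.942, for Insig1 with Srebf2, with a median of 0.815. These values describe libraries that share depth and cell makeup, and no test was made on them.

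Among the genes most like the set, by the same measure against the mean of the 7 over 15543 genes, were Acss2, which makes acetyl-CoA from acetate, at r = 0.975, Nsdhl at 0.967 and the sterol oxidase Msmo1 at 0.951, followed by Gba2 at 0.941, Slc6a17 at 0.929, Tom1l2 at 0.922, Blcap at 0.916, Bbs5 at 0.916 and Uap1 at 0.913. Of the 14 other synthesis enzymes, Mvd was at 0.473 and Ebp, a sterol isomerase, at -0.189, the lowest of that list. Abca1 was at -0.862, Npc2 at -0.862 and Srebf1 at -0.558. All 8 microglia markers were negative, from -0.690 for P2ry12 to -0.9504 for C1qb. All 8 astrocyte markers were negative as well, from -0.334 for Aldoc to -0.885 for Slc1a3. Of the 8 genes of the excitatory neuron list 6 were positive. Snap25, a protein of the synaptic fusion machinery, was highest at 0.703, followed by Syt1 at 0.668, and both are general to neurons. Slc17a7 was at 0.510, Camk2a at -0.052 and Cux2 lowest at -0.206. The 12 oligodendrocyte markers lay between -0.105 and 0.206.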

How the data were processed

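Per the labels and the methods, total RNA was extracted from punched cortex with an RNeasy micro kit, enriched with oligo(dT) and sequenced on an Illumina instrument. The authors used HISAT2 with mm10 for alignment and HTSeq with default settings for counting. Neither version is given in the sources used here. As deposited, the values are raw read counts for 25238 gene symbols, of which 24365 are in GENCODE M21 and 342 more were matched by RefSeq synonym. Library pairs within a group (18) differed well beyond sampling noise (chi-square per degree of freedom 10.7 to 48.4), so all 12 were kept.

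Each comparison took the 8 libraries of its 2 groups and was tested in edgeR 4.0.16 under R 4.3.3 (filterByExpr, TMM, glmQLFit, glmQLFTest), with Benjamini-Hochberg adjustment over all tested genes and calls under 0.1. Fold changes are the first group named over the second. CPM used TMM over 12 libraries, and list means used log2 CPM with a prior count of 2. Alternatives were DESeq2 1.42.0, its size factors in edgeR, limma-voom with quality weights (limma 3.58.1), no filter, at least 10 counts in every library, all 12 libraries in 1 fit, an adjusted p of 0.05, an offset for GC content and length (loess span 0.3), the oligodendrocyte list as a covariate, each library left out, and ISP 14 with ISP 18 left out. Added after the values were seen were Veh 2 with Veh 10 left out and the astrocyte, excitatory neuron and microglia covariates. The code was tested on simulated data.

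The 7 genes and all lists were chosen with earlier results of these data known. Named genes were all 7, up to 4 of each related list by smallest p and every called one where 5 or fewer were called, and the 10 genes most like the set, leaving out predicted genes. Genes named beyond this, such as Insig2, Mvd and Ebp in the account of likeness, were chosen after their values were seen. A few genes of the pathway, and 1 of the 10 most like the set, are not reported here. The labels and methods name no batch.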

Additional observations from a re-analysis of the deposited data

Results flagged for a closer look

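Within groups of 4 libraries, a library was picked out where its gap to the nearest other library, divided by the range of the group, passed Dixon's critical value of 0.829. This happened in 2 of 21 groups (7 genes in 3 groups), where chance gives about 1 in 20. Idi1 was low in Veh 2, at 10.3 CPM, with the nearest Veh library at 12.4 CPM (gap ratio 0.832). Insig1 was low in control 19, at 60.7 CPM, with the nearest control library at 84.4 CPM (gap ratio 0.857). Without Veh 2, Idi1 was not called in Veh against control, and without control 19 the log2 fold changes of the 7 genes in ISP against control ran from -0.76 to -0.52.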

How the results depend on the processing

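In ISP against control, where 4 of the 7 genes were called lower, the count was 7 with DESeq2 and 7 with limma-voom, 1 to 7 with each library left out, and 0 without ISP 14 and ISP 18 and with the oligodendrocyte, astrocyte, excitatory neuron or microglia list as a covariate. In Veh against control, where 1 was called lower, it was 2 with DESeq2, with its size factors, without a filter, with at least 10 counts in every library, with limma-voom and with the oligodendrocyte covariate, 0 to 2 with each library left out, and 0 with all 12 libraries in 1 fit, at an adjusted p of 0.05, without Veh 2 and Veh 10, and with the astrocyte, excitatory neuron or microglia covariate. In ISP against Veh it was 0 under every alternative run, and no gene of the set was called higher in any comparison under any of them. For fits with libraries left out or a covariate added, the share of all tested genes called is not given. Those counts, here and for the related lists, cannot be read as particular to the genes named. Log2 fold changes that turned positive in ISP against Veh were, without ISP 14 and ISP 18, 0.090 for Hmgcs1, 0.0090 for Sqle, 0.29 for Idi1, 0.11 for Cyp51 and 0.038 for Srebf2; with the astrocyte covariate, 0.14 for Hmgcs1, 0.15 for Sqle, 0.16 for Idi1, 0.12 for Cyp51 and 0.069 for Srebf2; with the microglia covariate, 0.13 for Hmgcs1, 0.11 for Sqle, 0.23 for Idi1, 0.015 for Insig1, 0.10 for Cyp51 and 0.072 for Srebf2; and for Idi1 also 0.080 with the excitatory neuron covariate, 0.10 without ISP 14 and 0.029 without ISP 18, in a range of -0.33 to 0.10 with each library left out. In Veh against control they were, with the astrocyte covariate, 0.28 for Sqle, 0.11 for Insig1, 0.11 for Cyp51, 0.25 for Fdps and 0.093 for Srebf2; with the microglia covariate, 0.13 for Sqle, 0.17 for Insig1, 0.0057 for Cyp51, 0.0070 for Fdps and 0.074 for Srebf2; and 0.0041 for Insig1 without Veh 2 and Veh 10. In ISP against control they were, with the astrocyte covariate, 0.40 for Hmgcs1, 0.24 for Sqle, 0.54 for Idi1, 0.42 for Insig1, 0.81 for Cyp51, 0.23 for Fdps and 0.39 for Srebf2, and with the microglia covariate, 0.069 for Idi1, 0.0090 for Insig1, 0.17 for Cyp51 and 0.049 for Srebf2. The cause was not tested. Of the log2 fold changes of the 7 genes under the alternatives, 135 of 154 in ISP against Veh, 114 of 147 in Veh against control and 93 of 147 in ISP against control kept their direction and their side of the threshold. In ISP against Veh none of the genes was called in any fit, so there the share counts direction alone. It cannot be set beside the shares of the other comparisons. No paired analysis was possible because the groups share no replicate numbers.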

Other observations

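Fatty acid synthesis, the other branch of lipid synthesis that SREBP proteins drive, was mixed in direction, with 4 of 6 genes negative in ISP against control (median log2 fold change -0.067) and 4 of 6 in Veh against control (median -0.11). In ISP against control 1 of 6 genes was called, Scd2, a desaturase, at 1586 ± 132 CPM in ISP and 1196 ± 132 CPM in control (SD, n = 4 each), a log2 fold change of 0.41 (adjusted p = 0.0344 from edgeR), and it was higher in every ISP library than in every control library. Acly, which makes cytosolic acetyl-CoA, had -0.23, Acaca, which carboxylates it, -0.20, and Scd1 0.30. Without ISP 14 and ISP 18 Scd2 was at 0.38 (adjusted p = 0.224), and without control 38 at 0.37 (adjusted p = 0.118). In Veh against control Elovl6, a fatty acid elongase, was called lower, at 49.9 ± 5.49 CPM in Veh and 64.1 ± 4.56 CPM in control (SD, n = 4 each), a log2 fold change of -0.35 (adjusted p = 0.0998 from edgeR), with Acly at -0.20, Acaca at -0.15 and Scd2 at 0.13. It was not called without Veh 2, Veh 8, Veh 10, control 21, control 36 or control 38. In ISP against Veh 0 of 6 were called by edgeR and 1 by DESeq2, and 3 had an unadjusted p under 0.05, all higher in ISP: Scd2 at 0.29, Elovl6 at 0.31 and Scd1 at 0.27.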
